A study of Mus musculus with 30 samples.

Results

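The comparison followed the normal cerebellum of the mouse from postnatal day 10 (P10) to postnatal day 22 (P22). It set 5 wild-type females killed at P22 (mouse numbers 26, 27, 29, 30 and 31) against 5 wild-type females killed at P10 (mouse numbers 1, 2, 5, 7 and 10), chosen by the age and genotype in their titles and not by any measured value. These are 10 of the 30 samples of the series. The other 20 are wild-type mice at week 11 and SCA7 KI mice, a knock-in for the polyglutamine disorder spinocerebellar ataxia caused by the gene Atxn7, at all 3 ages. The labels give the wild-type mice no strain background, and no treatment was applied to either age. Mice of both ages were decapitated, and each cerebellum was placed in RNAlater, frozen and extracted on its own, so each array is 1 animal. Whether mice came from the same litters is not given in the sources used here.

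In the mouse, the cerebellum is built largely after birth. Granule cell precursors divide in the external germinal layer, driven by Sonic hedgehog (Shh) that Purkinje cells release, then leave the cell cycle, migrate inward along Bergmann glia and become the granule neurons that form parallel fibre synapses on Purkinje dendrites. Over the same weeks Purkinje cells enlarge their dendrites, receptors change their subunits, axons are myelinated and the external germinal layer disappears.

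The amplified RNA of a mouse carried Cy5 and was hybridised beside one common Cy3 reference, a pool of RNA from all wild-type and KI mice at P10. Values for a mouse are therefore log2 ratios of that mouse to the P10 pool, a level, and a log2 difference is the mean at P22 minus the mean at P10. A value of 1 on either scale is a 2-fold ratio. A value table deposited with the arrays runs in the opposite direction, reference over mouse, and was used only as an alternative. The arrays measure RNA of the whole cerebellum, so fewer cells of a type and less RNA per cell cannot be told apart. The median Cy5 signal of the 10 arrays lay between 199 and 552 units, and between 67.7% and 82.5% of their spots had a Cy5 signal well above background.

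Some libraries stood apart. P10 mouse 1 had the lowest level of many neuronal genes and the highest level of genes of neighbouring hindbrain and midbrain neurons. The serotonin transporter Slc6a4 read 1.83 in mouse 1 and -1.11, -3.48, -4.23 and -4.35 in mice 2, 7, 5 and 10, while at P22 it lay between -3.57 and -2.61. Tph2, the neuronal enzyme of serotonin synthesis, read 1.19 in mouse 1 and between -3.71 and -0.91 in the other P10 mice, and Th, the enzyme of catecholamine synthesis, read 1.99 in mouse 1 and between -1.75 and -0.33 in the others. P10 mouse 2 was instead highest for Hox genes of the hindbrain, with Hoxb2 at 0.66, Hoxb3 at 1.11 and Hoxb5 at 1.20 against values of at most -1.67 in the other P10 mice. P10 mouse 10 read 1.43 for the median of 12 choroid plexus genes, and the other P10 mice between -1.28 and -0.14. The part of such differences in the results was not tested. Values without mouse 1, or without mice 1 and 2, are given beside genes whose call ended without them and beside some others. Genes without such a value could move as much. Without mouse 1, the log2 differences of Igfbpl1, Nhlh1 and Hmgb2 moved by -0.59, -0.57 and -0.52.

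Slides and ages were also tied together. The P10 mice lay on 3 slides, with mice 1 and 2 sharing 1 of them. At P22, mice 27, 29, 30 and 31 filled slide 6, which held no other group, and mouse 26 lay on slide 7. No slide and no scan day held wild-type mice of both ages, so no value within a slide or a scan day can be had, and slide and age cannot be told apart from these 10 arrays alone. With slide as a fixed block in the fit of all 30 arrays, slide 6 contributes nothing to the difference and the P22 level rests on mouse 26. Values from that fit are given below for only some genes.

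A large share of the transcriptome differed between the ages, which also differed by slide and scan day. In limma, with p-values adjusted by the Benjamini-Hochberg method over all probes tested, 10443 of 34755 probes differed between P22 and P10 at an adjusted p under 0.05, which is 30% of those tested. Of these, 5011 probes (14.4%) were higher and 5432 (15.6%) were lower at P22, with 958 higher and 1125 lower by more than 2-fold and 74 higher and 140 lower by more than 4-fold. The mice of the 2 ages did not overlap for 6737 probes (19.4%). Counted once per named gene by its brightest probe, 2601 of 18546 genes (14%) rose and 3498 (18.9%) fell, and the median log2 difference over all genes was -0.02. A set of genes with a share near 32.9% called is therefore at the level of all genes.

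The count was 8452 probes without the 2 P10 mice of slide 2, an alternative chosen after seeing the data, and 7073 of these were called in the same direction in all 10 mice. With slide as a fixed block it fell to 5468 probes. Among 217 called genes chosen for description, 10 lost the call without mouse 1, 14 with slide as a random block and 105 with slide as a fixed block. Without mice 1 and 2, 193 of the 217 could be tested and 19 lost the call. With the Cy5 channel alone, 36 of the 217 lost the call, and values from that fit are given below for only some genes. The 14 that were not called with slide as a random block were Ptch1, Shh, Mbnl2, Ppp1r17, Foxp2, Grin3a, Grm3, Slc17a8, Slc1a2, Slc1a1, Aif1, Clic6, Igf2 and Usp22.

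The same step was measured in KI mice, 5 at P10 and 4 at P22, which share no animal with the wild-type groups. The genotypes share the Cy3 pool and also slides and scan days. Slides 1, 2 and 3 held P10 mice of both genotypes, and slide 7 held P22 wild-type mouse 26 and P22 KI mouse 17. Likeness between the genotypes is therefore not free of slide. No probe of 33100 tested (0%) had a P10 to P22 difference that differed between genotypes at an adjusted p under 0.05 in limma's interaction test, while 1412 did at an unadjusted p under 0.05. In KI mice alone 7193 of 33214 probes (21.7%) were called. Of 9794 probes called in wild-type mice and tested in KI mice, 9567 had the same sign in KI mice and 5498 were called in the same direction. With slide as a fixed block the interaction was called for 1602 probes and with scan day for 533, so the count of 0 holds for fits without such a block.

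**Figure D1:**
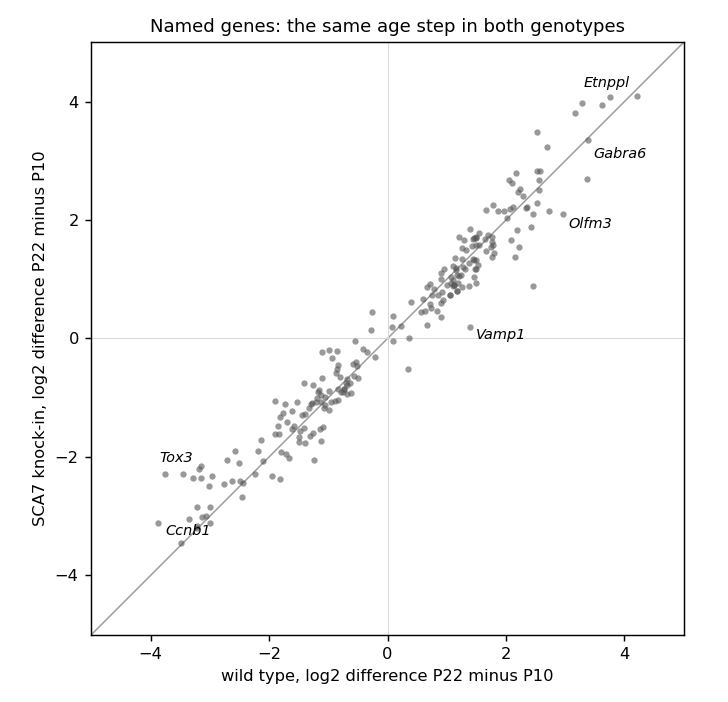
Log2 difference from P10 to P22 in wild-type mice (horizontal axis) and in KI mice (vertical axis) for the genes named in the text that had a value in both, 1 point per gene. The sign was the same in both genotypes for 225 of 230 genes; the genes were chosen partly by their size in wild-type mice, which alone places them farther out on the horizontal axis.

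Genes of cell division fell together. Of 40 tested genes of mitosis, 38 fell, 1 rose and 1 did not pass, with a median log2 difference of -1.98 against -0.02 for all genes. The largest fall was that of Ccnb1, the cyclin that with Cdk1 drives entry into mitosis, at -3.87 (SE 0.468, adjusted p = 3.61e-06), a 14.6-fold drop read on 3 P10 and 4 P22 arrays. Cdc20, the activator of the anaphase-promoting complex, read -1.46, -0.27, -0.20, 0.62 and 0.77 at P10 and -2.56, -2.32, -2.16, -2.03 and -2.01 at P22, from the lowest to the highest mouse. Its 2 ages did not overlap, P10 mouse 1 was the lowest of its age, and the log2 difference was -2.11 (SE 0.364, adjusted p = 8.04e-05).

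The promoters of this group are shown because its members fell together and share short sequences near their start sites. Promoters were available for 34 of the 40 genes from RefSeq (GRCm38.p6), and the 250 bases before the first listed start of each gene were searched on both strands. The CHR element TTTGAA, a short sequence of G2/M genes, was present in 11 of 34 (32.4%) against 16.3% of 27025 promoters of all genes. CCAAT was present in 26 of 34 (76.5%) against 34.5%. Among all 2662 genes that fell and have a promoter, the shares were 12.2% for TTTGAA and 38.1% for CCAAT, against 12.9% and 35.7% of the 14067 tested genes, so these shares are not those of the falling genes at large. The 3 promoters printed were picked after the search because they hold both sequences. In all, 9 motifs were searched, each in 1 list, and every one is reported beside its list. Part of each promoter is printed 5′ to 3′ in the direction of transcription, with CCAAT and TTTGAA, or their reverse complements ATTGG and TTCAAA, in capitals. Such a match is a description of the letters and not of a bound site. The Cdc20 stretch lies at chr4:118437344-118437493 on the minus strand, that of Cdk1 at chr10:69352913-69353162 on the minus strand and that of Top2a at chr11:99024190-99024439 on the minus strand.
Cdc20: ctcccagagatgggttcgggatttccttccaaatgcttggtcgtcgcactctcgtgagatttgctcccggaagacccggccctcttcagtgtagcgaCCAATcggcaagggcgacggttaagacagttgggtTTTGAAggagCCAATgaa
Cdk1: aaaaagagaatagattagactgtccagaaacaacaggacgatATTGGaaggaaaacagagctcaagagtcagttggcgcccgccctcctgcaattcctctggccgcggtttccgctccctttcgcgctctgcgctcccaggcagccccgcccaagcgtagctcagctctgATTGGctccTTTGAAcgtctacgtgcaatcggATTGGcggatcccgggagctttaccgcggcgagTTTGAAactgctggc
Top2a: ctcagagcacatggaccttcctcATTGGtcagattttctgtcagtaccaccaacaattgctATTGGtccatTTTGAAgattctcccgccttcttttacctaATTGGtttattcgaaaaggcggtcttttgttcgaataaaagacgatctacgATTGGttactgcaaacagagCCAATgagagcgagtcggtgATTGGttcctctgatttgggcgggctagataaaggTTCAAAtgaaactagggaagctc

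Cdk1, the kinase whose promoter is printed above with 2 TTTGAA and 3 CCAAT matches, read -0.97, -0.22, -0.08, 0.61 and 0.66 at P10 and -2.58, -2.22, -2.18, -2.16 and -1.99 at P22, and differed by -2.23 (SE 0.314, adjusted p = 5.81e-06). Top2a, the topoisomerase that untangles replicated chromosomes, differed by -2.76 (SE 0.402, adjusted p = 8.44e-06), and Mki67, the widely used marker of cycling cells, by -3.22 (SE 0.423, adjusted p = 3.98e-06). Both had every P22 mouse under every P10 mouse. Kinetochore and centromere genes fell by similar amounts, with Spc25 at -3.35 (adjusted p = 5.1e-07) and Cenpa, the centromeric histone, at -3.28 (adjusted p = 6.92e-07). Aurkb, the kinase of the chromosomal passenger complex, differed by -3.45 (adjusted p = 1.66e-06), Plk1 by -1.80 (adjusted p = 1.46e-06) and Ect2, which activates the contractile ring, by -3.02 (adjusted p = 2.07e-06).

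The exceptions in the mitosis list were Anln and Nek2. Anln, an actin-binding protein of the cleavage furrow that myelinating cells also make, rose with values of -0.83, -0.76, -0.65, -0.56 and -0.21 at P10 and 0.53, 0.60, 0.70, 0.71 and 1.04 at P22. All P22 mice were above all P10 mice, by 1.32 (SE 0.22, adjusted p = 4.82e-05). Nek2, a centrosomal kinase, did not pass the test, with a log2 difference of -0.28 (adjusted p = 0.608), or -0.66 (adjusted p = 0.155) without P10 mouse 1.

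DNA replication genes fell as well, 28 of 31 tested and none higher, with a median log2 difference of -1.25. Tyms, which makes thymidylate, read -1.46, -0.65, -0.38, 0.63 and 0.81 at P10 and -3.29, -2.82, -2.76, -2.74 and -2.62 at P22, a difference of -2.63 (SE 0.337, adjusted p = 1.69e-06) with no overlap of the ages. Rrm2, the regulated subunit of ribonucleotide reductase, differed by -2.44 (adjusted p = 2.02e-05), the helicase subunits Mcm6 and Mcm3 by -2.59 and -2.13, and the helicase cofactor Gins1 by -2.19. The E2F sequences TTTCGCGC or TTTGGCGC were found in 5 of 25 replication promoters (20%) against 0.673% of all. The 3 that did not pass were Pcna, the sliding clamp, at -0.35 (adjusted p = 0.224), the flap nuclease Fen1 at -0.41 (adjusted p = 0.173) and the origin protein Orc6 at -0.21 (adjusted p = 0.122). Without P10 mouse 1, Pcna and Fen1 passed, at -0.54 (adjusted p = 0.046) and -0.60 (adjusted p = 0.0388), and without mice 1 and 2 Orc6 passed too, at -0.33 (adjusted p = 0.0405).

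DNA repair genes followed, with 13 of 16 lower and none higher (median -0.74). Exo1, an exonuclease of mismatch repair, differed by -2.58 (SE 0.38, adjusted p = 1.01e-05), the checkpoint kinase Chek1 by -1.73 (adjusted p = 2.26e-05) and the Fanconi protein Fanci by -1.53 (adjusted p = 7.14e-06). Among 31 genes of chromatin and DNA methylation, 15 fell and 2 rose, or 9 and 5 of 25 without mice 1 and 2. Uhrf1, which brings maintenance methylation to replicated DNA, read -1.11, -0.20, -0.14, 0.88 and 0.96 at P10 and -3.46, -3.27, -3.07, -2.99 and -2.92 at P22, with a difference of -3.22 (SE 0.398, adjusted p = 1.28e-06). Hmgb2, a DNA-bending protein of dividing cells, fell with a difference of -2.49 (adjusted p = 0.000104), as did the histone chaperones Chaf1b (-1.83) and Asf1b (-1.61) and the helicase Hells (-1.62). The 2 catalytic subunits of Polycomb complex 2 moved in opposite directions. Ezh2, the form of dividing cells, had a difference of -1.49 (adjusted p = 0.00166), and Ezh1, the form of resting cells, one of 1.05 (adjusted p = 1.58e-05).

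**Figure D2:**
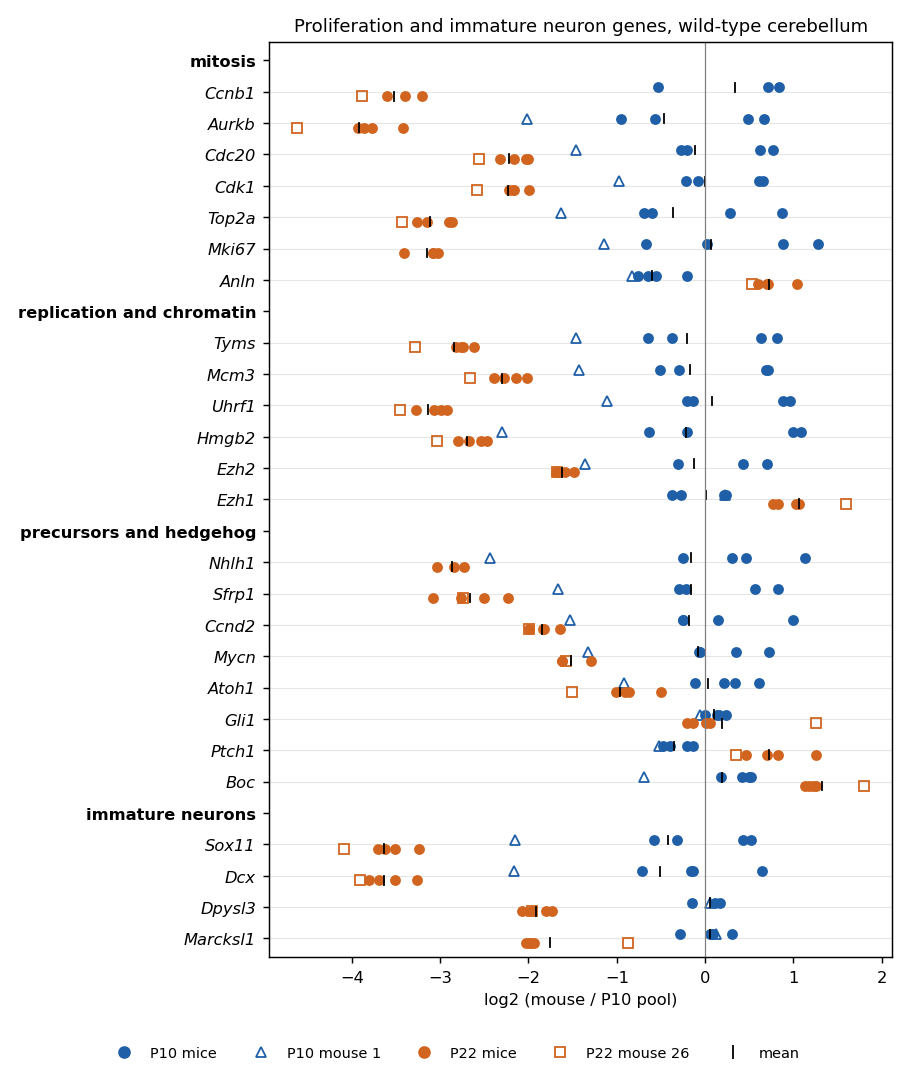
Log2 ratio to the P10 pool in each of the 10 wild-type mice (horizontal axis) for genes of the cell cycle and its regulators (rows); circles are mice, the open triangle is P10 mouse 1, the open square is P22 mouse 26 and the tick is the group mean. Genes of immature neurons (Sox11, Dcx, Dpysl3 and Marcksl1) are included. The P22 mice of Cdc20 lie between -2.56 and -2.01 and its P10 mice between -1.46 and 0.77.

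For 48 genes the Cy5 signal was not well above background on any P22 array but was on every P10 array. Of these, 21 were called, where 32.9% of all genes were. A lower bound was computed on the Cy5 channel, as the P10 mean against the lowest signal well above background on the P22 arrays, or the probe's own signal where that was higher. By it Hmmr, a mitotic spindle protein, was at least 3.07-fold lower at P22 and Lgals7, a galectin, at least 2.43-fold, with log2 differences of the ratio of -1.62 (adjusted p = 0.000501) and -1.32 (adjusted p = 5.02e-05). In the other direction there were 8 such genes, of which 3 were called. The bound passed 2-fold for 5 of the 48 genes and for 1 of the 8. Spots with Cy5 well above background made up 67.7% to 78.7% on the P22 arrays of slide 6 and 82.5% in mouse 26. At P10 they made up 76.0% to 82.1%. The part of this in the 2 counts was not tested.

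Regulators of granule cell precursors fell. Of 21 genes of granule precursors and the Shh pathway, 12 fell and 3 rose. Atoh1, the transcription factor that keeps precursors dividing, read -0.92, -0.12, 0.21, 0.34 and 0.61 at P10 and -1.51, -1.01, -0.91, -0.86 and -0.50 at P22, a difference of -0.98 (SE 0.304, adjusted p = 0.0149), with some overlap because P10 mouse 1 lay among the P22 mice. Mycn and Ccnd2, targets of Shh signalling that drive the cycle, differed by -1.45 (adjusted p = 0.00116) and -1.67 (adjusted p = 0.00114). Barhl1, a homeodomain factor of the granule lineage, differed by -1.82 (adjusted p = 0.00108), the helix-loop-helix factor Nhlh1 by -2.71 (adjusted p = 0.00146) and the Wnt inhibitor Sfrp1 by -2.51 (adjusted p = 7.83e-06).

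Among genes of the signalling components, some rose. Shh, the ligand, read -0.71, -0.30, -0.16, -0.11 and 0.03 at P10 and -0.12, 0.01, 0.09, 0.21 and 0.54 at P22, which is a rise of 0.40 (SE 0.139, adjusted p = 0.0314) with overlapping ages and no call with slide as a random block. It was not called without P10 mouse 7 (0.28, adjusted p = 0.118) or 5 (0.38, adjusted p = 0.0544), or without P22 mouse 31 (0.30, adjusted p = 0.111) or 27 (0.38, adjusted p = 0.0611). Ptch1, the receptor that Shh inactivates, rose by 1.07 (SE 0.252, adjusted p = 0.00192), and Boc, a co-receptor, by 1.13 (SE 0.237, adjusted p = 0.000623), both without overlap. The Ptch1 difference was 0.84 (adjusted p = 0.0796) with slide as a random block, 0.07 with slide as a fixed block and -0.06 with scan day as a fixed block. Gli1, the transcription factor most often used as a readout of the pathway, read -0.06, 0.00, 0.14, 0.16 and 0.24 at P10 and -0.20, -0.14, 0.01, 0.06 and 1.25 at P22, with P22 mouse 26 as the highest, and did not pass at 0.10 (adjusted p = 0.729).

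Inhibitors of the cell cycle did not rise as a group, with 2 of 13 higher, 5 lower and a median log2 difference of -0.05. Btg1, an antiproliferative protein of differentiating cells, read -1.61, -0.01, 0.09, 0.24 and 0.40 at P10 and 1.10, 1.15, 1.27, 1.50 and 1.61 at P22, by 1.50 (SE 0.357, adjusted p = 0.00197). The pocket protein Rbl2, of quiescent cells, rose by 0.63 (adjusted p = 5.3e-05), while its relative Rb1 differed by -0.84 (adjusted p = 0.000169). The kinase inhibitors Cdkn1c and Cdkn2c fell, with differences of -1.17 (adjusted p = 2.7e-06) and -0.89 (adjusted p = 0.0129).

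Genes of immature and migrating neurons were lower at P22. Of 36 tested, 22 fell and 2 rose, and the median log2 difference was -0.79. Without P10 mice 1 and 2, 13 of 31 fell and the median was -0.55. Sox11, a transcription factor of newborn neurons, read -2.15, -0.58, -0.32, 0.43 and 0.52 at P10 and -4.09, -3.70, -3.62, -3.51 and -3.24 at P22. The ages were separated by more than 1 log2 unit, P10 mouse 1 was nearest to P22, and the difference was -3.21 (SE 0.446, adjusted p = 5.49e-06), or -3.65 (adjusted p = 3.51e-07) without that mouse. Dcx, the microtubule protein of migrating neurons, differed by -3.13 (SE 0.481, adjusted p = 2.66e-05) and Igfbpl1, a secreted protein of young neurons, by -3.06 (SE 0.542, adjusted p = 0.000106). Dpysl3, which acts in growth cones, read -0.15, 0.06, 0.11 and 0.17 at P10 (4 usable arrays) and -2.07, -1.97, -1.96, -1.80 and -1.73 at P22. Here P10 mouse 1 lay among the other P10 mice, and the difference was -1.95 (SE 0.149, adjusted p = 9.32e-09).

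Marcksl1, an actin regulator of growing neurites, differed by -1.82 (adjusted p = 5.26e-06), with P22 mouse 26 at -0.87 and the other P22 mice between -2.03 and -1.94. The 2 that rose were the kinesin Kif5c, a motor of axonal transport, at 0.71 (adjusted p = 0.000236), and Astn2, a partner of the migration protein astrotactin, at 0.85 (adjusted p = 0.0395). Astn2 rested on P22 mouse 26, which read 2.03 against values between 0.27 and 0.45 in the other P22 mice, and was not called without P22 mouse 26, at 0.52 (adjusted p = 0.174), P10 mouse 2, at 0.85 (adjusted p = 0.0634), P10 mouse 7, at 0.82 (adjusted p = 0.0672), or P10 mouse 1, at 0.64 (adjusted p = 0.133).

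Of 24 tested genes of RNA-binding and splicing regulators, 9 fell and 4 rose, or 8 and 2 of 20 without P10 mice 1 and 2. Elavl2, a neuronal RNA-binding protein, differed by -1.85 (adjusted p = 0.000144), Celf6 by -1.33 (adjusted p = 0.000642), Khdrbs3 by -1.10 (adjusted p = 5.11e-05) and the fetal mRNA-binding proteins Igf2bp3 and Igf2bp2 by -1.29 (adjusted p = 8.61e-05) and -1.16 (adjusted p = 0.00155). Ptbp1, the splicing repressor of non-neuronal and progenitor cells, read -0.13, 0.12, 0.45, 0.58 and 0.64 at P10 and -0.62, -0.52, -0.50, -0.44 and 0.05 at P22 and differed by -0.74 (adjusted p = 0.00105), with P22 mouse 26 the highest of its age and a difference of 0.03 with slide as a fixed block. Those that rose included Mbnl2, a splicing factor of mature tissue, at 0.90 (adjusted p = 0.0136), Msi2 at 0.84 (adjusted p = 0.000108) and Celf1 at 0.79 (adjusted p = 0.00606). Without P10 mice 1 and 2, Mbnl2 was not called, at 0.67 (adjusted p = 0.0848).

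Genes of Notch signalling, which holds progenitors and glia in an undifferentiated state, were lower, with 11 of 17 genes down, 2 up and a median of -0.50. Hes5, a direct Notch target, read -0.62, 0.31 and 0.57 at P10 (3 usable arrays) and -2.80, -2.43, -2.42, -2.10 and -2.05 at P22. No mouse overlapped, and the difference was -2.45 (SE 0.235, adjusted p = 8.27e-08). The ligand Dll3 differed by -1.48 (adjusted p = 3.41e-06) and the receptor Notch3 by -1.05 (adjusted p = 0.00084), while Numb, an inhibitor of Notch, rose by 1.16 (adjusted p = 0.000101). P10 mouse 1 was the highest mouse for both Dll3 and Notch3, and without it they differed by -1.33 (adjusted p = 1.22e-05) and -0.84 (adjusted p = 0.00371). Without mice 1 and 2, Notch3 differed by -0.63 (adjusted p = 0.0279). The Notch3 difference was -0.06 with slide as a fixed block.

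Genes of Wnt and BMP signalling went both ways, with 6 of 28 up and 7 down, or 3 and 6 of 27 without mice 1 and 2. Their median log2 difference was 0.03 and changed sign under median centring (-0.15) and with the Cy5 channel alone (-0.27). The BMP ligands split. Bmp5 rose, with values of -1.27, -1.15, 0.01, 0.24 and 0.43 at P10 and 0.62, 0.96, 0.97, 1.40 and 1.50 at P22 and a difference of 1.44 (SE 0.337, adjusted p = 0.00179), but was not called without P10 mice 1 and 2, at 0.86 (adjusted p = 0.0579). Bmp4 and Bmp7 fell, with differences of -0.76 (adjusted p = 6.98e-05) and -0.85 (adjusted p = 0.000463). Wnt7a, a ligand made by granule neurons, rose by 1.07 (adjusted p = 8.39e-05) and the receptor Fzd1 by 0.96 (adjusted p = 0.000727), while the secreted inhibitor Sfrp2 fell, with a difference of -1.25 (adjusted p = 0.00208), or -0.80 (adjusted p = 0.0462) without mice 1 and 2.

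Genes of granule neurons were mostly higher at P22. Of 24 tested genes, 15 rose and 1 fell, with a median log2 difference of 1.13, and all 24 were above background on at least 3 arrays of each age. Cbln3, a cerebellin that granule cells secrete at parallel fibre synapses, read -3.70, -0.66, -0.41, -0.16 and 0.99 at P10 and 2.44, 2.50, 2.77, 2.97 and 3.48 at P22. The lowest value was that of P10 mouse 1, every P22 mouse was above every P10 mouse, and the difference was 3.62 (SE 0.625, adjusted p = 7.17e-05), or 2.89 (adjusted p = 0.000146) without mouse 1. Slc17a7, the vesicular glutamate transporter of parallel fibres, read -2.07, -0.67, -0.24, -0.09 and 0.95 at P10 and 1.12, 1.87, 1.93, 1.96 and 3.77 at P22. Its highest value was that of P22 mouse 26, and the difference of 2.55 (SE 0.521, adjusted p = 0.000474) became 2.14 (adjusted p = 0.00218) without P10 mouse 1.

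Among other granule genes, Calb2, the calcium buffer calretinin, rose by 2.29 (SE 0.289, adjusted p = 1.7e-06) and Tiam1, a Rac exchange factor, by 2.19 (SE 0.213, adjusted p = 3.1e-08). Etv1, a transcription factor of maturing granule cells, rose by 2.10 (SE 0.381, adjusted p = 0.000129), or 1.66 (adjusted p = 0.000304) without mouse 1. The gene that fell was Kcnk9, a leak potassium channel, with -0.64, -0.58, 0.35 and 0.71 at P10 (4 usable arrays) and -2.11, -1.99 and -1.77 at P22 (3 usable arrays) and a difference of -1.92 (SE 0.39, adjusted p = 0.00228). Pax6, a factor of the granule lineage from precursor to neuron, did not pass, at -0.26 (adjusted p = 0.774). It read -3.43 in P10 mouse 1 and between -0.51 and 0.77 in the other P10 mice, and without mouse 1 the difference was -1.003 (adjusted p = 0.114).

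Purkinje cell genes rose in 16 of 28 tested, with 1 lower and a median log2 difference of 1.10, or 0.50 with slide as a fixed block. Without P10 mouse 1 the list held 11 higher and 1 lower, with a median of 0.71, and without mice 1 and 2 it held 9 higher and 1 lower of 26. Mouse 1 was lowest over the whole list, with a median level of -1.11 against 0.00 to 0.49 in the other P10 mice and 0.71 to 1.15 at P22, while all 28 genes were above background at both ages. Itpr1, the calcium release channel of the Purkinje endoplasmic reticulum, read -3.21, -0.34, -0.03 and 0.56 at P10 (4 usable arrays) and 1.87, 2.39, 2.41, 2.49 and 2.87 at P22 and rose by 3.16 (SE 0.627, adjusted p = 0.00064), or 2.34 (adjusted p = 0.00198) without mouse 1. Gng13, a G protein subunit, rose by 2.56 (adjusted p = 0.000161) and by 2.24 (adjusted p = 0.000758) without mouse 1. Pvalb, the calcium buffer parvalbumin, rose by 2.21 (adjusted p = 0.000711) and by 1.66 (adjusted p = 0.00226) without it. In the fit with slide as a fixed block, Itpr1, Gng13 and Pvalb differed by 1.48, 1.26 and 0.19.

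Other rises were also smaller without P10 mouse 1. Car8, a regulator of Itpr1, rose by 2.05 (adjusted p = 0.00904), by 1.49 (adjusted p = 0.0292) without mouse 1 and was not called without mice 1 and 2, at 1.24 (adjusted p = 0.0975). Ppp1r17, a phosphatase inhibitor of Purkinje cells, rose by 2.17 (adjusted p = 0.0202) and was not called without mouse 1, at 1.43 (adjusted p = 0.0782). The markers Calb1 and Pcp2 did not pass with all mice, at 1.40 (adjusted p = 0.0861) and 1.50 (adjusted p = 0.0714), and stood at 0.69 (adjusted p = 0.35) and 0.83 (adjusted p = 0.278) without mouse 1. Their Cy5 spots were saturated, Pcp2 on all 5 P22 arrays and 1 P10 array and Calb1 on 3 P22 arrays and 1 P10 array, so their P22 values are limited by the scanner's range. Pcp2 read -2.58, 0.23, 0.41, 1.03 and 1.35 at P10 and 1.15, 1.67, 1.67, 1.70 and 1.76 at P22, and 1 P10 mouse lay within the P22 range. These are values of the brighter of 2 tested Pcp2 probes, and the other probe was called as higher at P22. Foxp2, a transcription factor of Purkinje cells and of other hindbrain neurons, was the gene that fell, at -1.11 (adjusted p = 0.0465), and was not called without mouse 1, at -0.72 (adjusted p = 0.178). Foxp2 was not called with any 1 of these mice left out, P10 mouse 1, 2, 5 or 10 or P22 mouse 26, 27, 29, 30 or 31, at -1.20 to -0.72 (adjusted p = 0.0501 to 0.178).

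**Figure D3:**
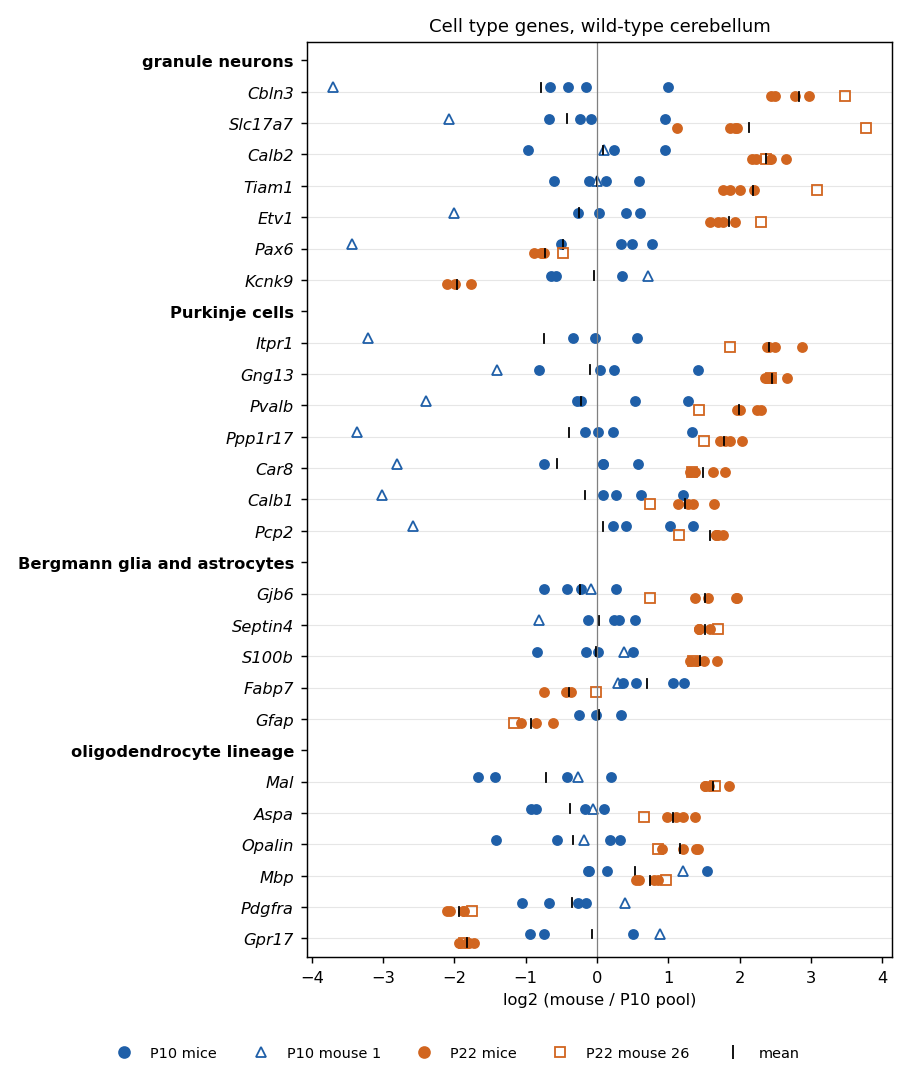
Log2 ratio to the P10 pool in each wild-type mouse (horizontal axis) for genes of granule neurons, Purkinje cells, astroglia and the oligodendrocyte lineage (rows); blue marks are P10 mice with mouse 1 as an open triangle, orange marks are P22 mice with mouse 26 as an open square, and the tick is the group mean. Mouse 1 is the lowest P10 mouse for Cbln3 (-3.70) and Itpr1 (-3.21) and the highest for Gpr17 (0.88).

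Among 17 tested genes of inhibitory interneurons, 3 rose and 2 fell, a called share of 29.4% against 32.9% of all genes. Without mice 1 and 2, 5 rose and 2 fell of 16. Gad1, the main enzyme of GABA synthesis, read -0.83, -0.47, -0.34, -0.12 and 0.08 at P10 and 0.72, 0.98, 1.13, 1.32 and 1.46 at P22, a rise of 1.46 (SE 0.224, adjusted p = 1.75e-05) without overlap. Kit, the receptor of molecular layer interneurons, rose by 1.01 (adjusted p = 0.00041) and Kcna1, a potassium channel of basket cell terminals, by 1.54 (adjusted p = 0.000106). Of 7 genes of unipolar brush cells, excitatory interneurons of the granular layer, 3 rose, among them Plcb4, a phospholipase that Purkinje cells also make, and the list's median log2 difference of 0.66 was -0.23 with slide as a fixed block.

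GABA-A receptors are chloride channels built from 5 subunits. Of 13 tested genes, 5 rose and 2 fell, with a median log2 difference of 0.39 that was -0.29 with the Cy5 channel alone. With mice 1 and 2 left out, 5 of 10 rose and 0 fell. Gabra6, the alpha subunit of granule cells, read -4.95, -0.31, 0.07, 0.51 and 0.99 at P10 and 2.33, 2.50, 2.55, 2.83 and 3.01 at P22. P10 mouse 1 accounted for the lowest value, the ages did not overlap, and the difference of 3.38 (SE 0.761, adjusted p = 0.00128) became 2.33 (adjusted p = 0.0018) without that mouse and 2.12 (adjusted p = 0.00874) without mice 1 and 2. The Gabra6 difference was 1.56 with slide as a fixed block. Gabrd, the delta subunit that joins Gabra6 outside synapses, rose by 2.12 (adjusted p = 0.00546) and by 1.40 (adjusted p = 0.0372) without mouse 1.

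Gabrb2, a beta subunit of the common adult synaptic receptor, read -1.08, -0.72, -0.47 and -0.28 at P10 (4 usable arrays) and 0.35, 0.54, 0.55, 0.83 and 0.98 at P22 and rose by 1.29 (SE 0.25, adjusted p = 0.000399), with no usable value in mouse 1. Gabra3, an alpha subunit common in developing brain, read -1.24, -0.87, -0.66, -0.52 and 0.67 at P10 and -2.01, -1.58, -1.53, -1.47 and -1.38 at P22 and differed by -1.07 (SE 0.278, adjusted p = 0.00456), and Gabrg3 differed by -0.81 (adjusted p = 0.0178). P10 mouse 1 was the highest for both, Gabrg3 was not called without it, at -0.58 (adjusted p = 0.0771), and Gabra3 was not called without mice 1 and 2, at -0.67 (adjusted p = 0.0613). Gabrg3 was not called with any 1 of these mice left out, P10 mouse 1 or P22 mouse 26, at -0.69 to -0.58 (adjusted p = 0.0587 to 0.0771). Gabra2 and Gabra5 did not pass, at -0.55 (adjusted p = 0.376) and 0.35 (adjusted p = 0.576), and without mice 1 and 2 they stood at -0.03 (adjusted p = 0.971) and 1.001 (adjusted p = 0.0923). The other of 2 tested probes of Gabra5 was called as lower at P22, and the Gabra5 difference was -0.66 with the Cy5 channel alone.

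Genes of NMDA receptors, glutamate-gated calcium channels, moved in both directions. Grin2c, the subunit of mature granule cells, read -0.46, -0.45, -0.28, 0.66 and 1.04 at P10 and 1.97, 2.14, 2.31, 2.41 and 3.43 at P22, a rise of 2.35 (SE 0.31, adjusted p = 3.58e-06). Grin2b, the subunit of immature neurons, read -0.40, -0.24, 0.29, 0.37 and 0.54 at P10 and -1.51, -1.46, -1.44, -1.28 and -1.19 at P22, a difference of -1.49 (SE 0.195, adjusted p = 2.29e-06). Neither gene had a mouse of one age within the range of the other, and both kept the call without mice 1 and 2. Grin3a, another early subunit, fell, with a difference of -0.68 (adjusted p = 0.0424) but was not called without mouse 1, at -0.42 (adjusted p = 0.177). Grin3a was not called with any 1 of these mice left out, P10 mouse 1 or 2 or P22 mouse 26, 27, 29, 30 or 31, at -0.69 to -0.42 (adjusted p = 0.0574 to 0.177). The obligatory subunit Grin1 and Grin2a did not pass, at 0.36 (adjusted p = 0.397) and 0.07 (adjusted p = 0.636).

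Of 12 AMPA receptor subunits and partners, 4 rose and 3 fell. Gria1, carried by Bergmann glia and Purkinje cells, rose by 1.69 (SE 0.237, adjusted p = 5.99e-06), Gria4 by 1.38 (adjusted p = 7.14e-06) and Gria3 by 0.91 (adjusted p = 0.000452), although another probe of Gria3 was called in the opposite direction. Gria2, the subunit that blocks calcium entry, did not pass, at 0.10 (adjusted p = 0.747). The auxiliary proteins Cnih2 and Cacng4, which shape AMPA receptor gating, fell, with differences of -1.31 (adjusted p = 2.18e-05) and -1.13 (adjusted p = 6.17e-05). Among 13 kainate, delta and metabotropic receptors, 2 rose and 3 fell, or 0 and 2 without mice 1 and 2. With all mice 38.5% were called against 32.9% of all genes. Grm5, the metabotropic receptor of early neurons and glia, read -1.87, -1.18, -0.41, -0.23 and 0.55 at P10 and -2.93, -2.50, -2.49, -2.45 and -2.27 at P22 and differed by -1.90 (SE 0.378, adjusted p = 0.000363), Grm3 differed by -0.84 (adjusted p = 0.00541), and Grm4, the receptor of parallel fibre terminals, rose by 0.75 (adjusted p = 0.0373). Without P10 mouse 1, Grm4 was not called, at 0.67 (adjusted p = 0.0852). Grm4 was not called with any 1 of these mice left out, P10 mouse 1, 5 or 7 or P22 mouse 26, 27 or 29, at 0.46 to 0.77 (adjusted p = 0.0535 to 0.166).

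Genes of the vesicular glutamate transporters moved in both directions. Slc17a6, the form that granule cells carry early and that climbing fibres keep, read -1.52, -1.44, -0.58, -0.54 and 0.31 at P10 and -2.90, -2.66, -2.63, -2.61 and -2.50 at P22. All P22 mice were below all P10 mice, and the difference was -1.90 (SE 0.459, adjusted p = 0.00231), or -1.64 (adjusted p = 0.00984) without mouse 1 and -1.49 (adjusted p = 0.0337) without mice 1 and 2, while Slc17a7 rose as given above. Slc17a8 fell, with a difference of -0.70 (adjusted p = 0.0208) and was not called without mouse 1, at -0.59 (adjusted p = 0.0642).

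Genes of the glial glutamate transporters were higher at P22. Slc1a3, the transporter of Bergmann glia, rose by 1.25 (adjusted p = 0.00226) and Slc1a2 by 1.16 (adjusted p = 0.013), although 1 of 4 tested probes of Slc1a2 was called. Slc1a2 was not called with slide as a random block, at 0.89 (adjusted p = 0.0784), or under median centring, at 0.94 (adjusted p = 0.138), and Slc1a3 stood at 0.05 with slide and -0.20 with scan day as a fixed block. The neuronal transporter Slc1a1 fell, with a difference of -0.61 (adjusted p = 0.0498) and was not called without mouse 1, at -0.37 (adjusted p = 0.203). Slc1a1 was not called with any 1 of these mice left out, P10 mouse 1 or 2 or P22 mouse 26, 27, 29, 30 or 31, at -0.64 to -0.37 (adjusted p = 0.0646 to 0.203).

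Chloride transporters set the direction of GABA currents. The potassium-coupled exporter Slc12a5 rose by 0.71 (adjusted p = 0.0309), and so did the importer Slc12a2, with -0.72, -0.31, -0.22, -0.09 and 0.14 at P10 and 0.48, 0.49, 0.59, 0.66 and 1.24 at P22 and a rise of 0.93 (SE 0.172, adjusted p = 0.00016). For Slc12a5 the values were -1.29, -0.40, -0.32, 0.06 and 0.35 at P10 and 0.15, 0.19, 0.36, 0.54 and 0.74 at P22, and the ages overlapped. Slc12a5 was not called with any 1 of these mice left out, P10 mouse 5 or 7 or P22 mouse 26 or 27, at 0.47 to 0.69 (adjusted p = 0.0532 to 0.12). For both genes, P22 mouse 26 was the highest of its age. The rise of Slc12a2 was not called with the Cy5 channel alone, where its log2 difference was 0.01.

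**Figure D4:**
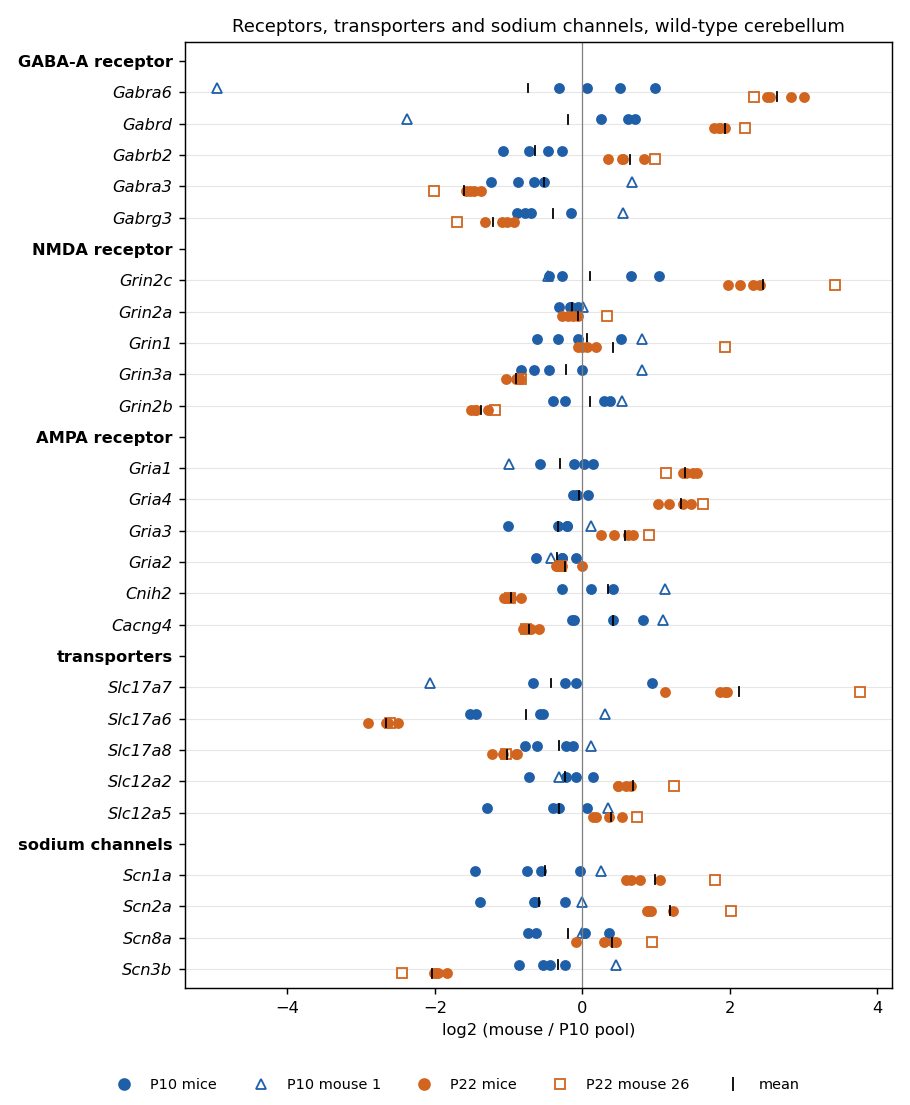
Log2 ratio to the P10 pool in each wild-type mouse (horizontal axis) for receptor subunits, transporters and sodium channels (rows); blue marks are P10 mice with mouse 1 as an open triangle, orange marks are P22 mice with mouse 26 as an open square, and the tick is the group mean. Gabra6 and Grin2c lie higher at P22 and Grin2b, Slc17a6 and Scn3b lower, with no mouse of one age inside the range of the other.

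Sodium channel genes changed as a block, 6 of 7 higher and 1 lower, with a median log2 difference of 1.48. Scn2a, a channel of axon initial segments and unmyelinated axons, read -1.39, -0.65, -0.64, -0.24 and -0.01 at P10 and 0.88, 0.91, 0.93, 1.23 and 2.02 at P22 and rose by 1.78 (SE 0.262, adjusted p = 9.74e-06). Scn1a rose by 1.48 (adjusted p = 0.000143), Scn8a, the channel of mature initial segments and nodes, by 0.60 (adjusted p = 0.0228), and the beta subunit Scn2b by 1.50 (adjusted p = 0.000107). Scn8a was not called with any 1 of these mice left out, P10 mouse 7 or 10 or P22 mouse 26, at 0.46 to 0.49 (adjusted p = 0.0719 to 0.085). Scn3a rose by 0.90 (adjusted p = 0.0293), but another of its probes was called in the opposite direction. Without mice 1 and 2 it rose by 1.42 (adjusted p = 0.00102). Scn3a was not called with any 1 of these mice left out, P10 mouse 5, 7 or 10 or P22 mouse 26 or 27, at 0.68 to 0.89 (adjusted p = 0.051 to 0.102). The one that fell was Scn3b, a beta subunit of young neurons, with -0.86, -0.54, -0.44, -0.24 and 0.46 at P10 and -2.44, -2.01, -1.99, -1.96 and -1.83 at P22 and a difference of -1.72 (SE 0.237, adjusted p = 5.96e-06).

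Of 43 potassium and HCN channel genes, 17 rose and 4 fell. Kcnip4, a calcium-sensing partner of A-type channels, rose by 2.02 (adjusted p = 3.79e-07), Kcnab1 by 1.78 (adjusted p = 4.18e-06) and the fast Kv3 channel Kcnc1 by 1.66 (adjusted p = 7.14e-05). With slide as a fixed block, Kcnip4, Kcnab1 and Kcnc1 differed by 0.65, 0.35 and 1.12. Hcn3, a pacemaker channel, and Kcnq5, an M-type channel, fell, with differences of -1.41 (adjusted p = 0.000283) and -1.05 (adjusted p = 5.47e-05). Calcium channels rose in 4 of 14, with none lower, so 28.6% were called against 32.9% of all genes. Cacnb4, the beta subunit of cerebellar P/Q-type channels, rose by 1.87 (SE 0.253, adjusted p = 3.46e-06), and Cacna1a, the pore subunit of the same channels, by 1.05 (adjusted p = 0.00929), with P22 mouse 26 highest at 2.22.

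Synaptic vesicle genes rose in 15 of 29, with 1 lower and a median log2 difference of 0.68. Unc13c, the priming factor of cerebellar granule cells, read -0.65, -0.50, -0.42, -0.34 and -0.24 at P10 and 1.18, 1.21, 1.24, 1.33 and 1.61 at P22. Its ages were far apart relative to the spread within each, and the difference was 1.74 (SE 0.134, adjusted p = 1.52e-09). Snap25, of the fusion complex, rose by 1.97 (adjusted p = 3.37e-06), the active zone protein Rims1 by 1.43 (adjusted p = 2.56e-06) and the vesicle protein Vamp1 by 1.40 (adjusted p = 0.000253). Stx1a, the syntaxin partner of Snap25, fell, with a difference of -1.14 (adjusted p = 0.00434), and was not called without mice 1 and 2, at -0.74 (adjusted p = 0.0768).

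Synapse organisers rose in 5 of 21, with none lower, so 23.8% were called against 32.9% of all genes. Among them were Cbln3 and the presynaptic adhesion molecule Nrxn3 at 1.31 (adjusted p = 6.2e-05). Cbln1, the cerebellin that ties parallel fibres to Purkinje spines, did not pass, at 1.21 (adjusted p = 0.0916), or at 0.63 (adjusted p = 0.316) without mouse 1, and its spot was saturated on 3 of 4 usable P22 arrays and 1 P10 array. It read -2.33 in P10 mouse 1 and between 0.31 and 1.02 in the other P10 mice. Calcium signalling genes rose in 12 of 27, with 1 lower. Besides Itpr1 and Pvalb these included Atp2a2, the calcium pump of the endoplasmic reticulum, at 1.55 (adjusted p = 5.41e-05), and Camk4, a nuclear kinase of granule cells, at 1.11 (adjusted p = 0.000141). Hpca, the calcium sensor hippocalcin, fell, with a difference of -0.74 (adjusted p = 0.00417) and was not called without mice 1 and 2, at -0.45 (adjusted p = 0.0903).

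Of 18 matrix genes, 2 rose and 5 fell, so 38.9% were called against 32.9% of all genes. Hapln2, a link protein of nodes of Ranvier, rose by 1.28 (adjusted p = 0.00319) and Hapln4, a link protein of perineuronal nets, by 0.74 (adjusted p = 0.0305). Its rise was 1.17 (adjusted p = 0.00133) without mice 1 and 2. Hapln4 was not called with any 1 of these mice left out, P10 mouse 5 or 7 or P22 mouse 26, at 0.55 to 0.57 (adjusted p = 0.104 to 0.117). Has2, a hyaluronan synthase, and Vcan, a proteoglycan of the immature matrix, fell, with differences of -0.94 (adjusted p = 0.000103) and -0.86 (adjusted p = 0.00762).

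Astroglial genes rose in 15 of 28, with 3 lower and a median log2 difference of 0.77, or 16 higher and 1 lower of 24 without mice 1 and 2. With slide as a fixed block the median was 0.36. Gjb6, the connexin of astrocyte gap junctions, read -0.74, -0.42, -0.23, -0.08 and 0.26 at P10 and 0.75, 1.38, 1.56, 1.95 and 1.97 at P22 and rose by 1.76 (SE 0.235, adjusted p = 3.34e-06). The Gjb6 difference was 0.26 with slide as a fixed block. Septin4, a cytoskeletal protein of Bergmann glia, rose by 1.49 (adjusted p = 3.35e-06), the calcium-binding protein S100b by 1.46 (adjusted p = 3.25e-05) and the bicarbonate transporter Slc4a4 by 1.18 (adjusted p = 6.15e-05). Fabp7, the fatty acid-binding protein of radial and young Bergmann glia, read 0.30, 0.37, 0.54, 1.07 and 1.22 at P10 and -0.75, -0.43, -0.36 and -0.01 at P22 (4 usable arrays) and differed by -1.09 (SE 0.331, adjusted p = 0.0151). Fabp7 was not called without P22 mouse 27, at -0.97 (adjusted p = 0.052). The intermediate filament gene Gfap and the folate enzyme Aldh1l1, both used as astrocyte markers, fell too, with differences of -0.95 (adjusted p = 0.00548) and -0.84 (adjusted p = 8.75e-05). Gfap was not called with the Cy5 channel alone, at -0.00 (adjusted p = 0.993), or with scaling between arrays, at -0.85 (adjusted p = 0.073). The Aldh1l1 difference was -0.38 with slide as a fixed block.

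Myelin genes rose in 8 of 26, with none lower and a median of 0.41, so 30.8% were called against 32.9% of all genes. Without mice 1 and 2 the count was 10 of 22 with a median of 1.10. Mal, a myelin lipid raft protein, read -1.67, -1.43, -0.42, -0.27 and 0.19 at P10 and 1.51, 1.52, 1.57, 1.65 and 1.85 at P22. The 2 lowest P10 values were those of mice 5 and 7, no P22 mouse overlapped, and the difference was 2.34 (SE 0.326, adjusted p = 5e-06), or 2.79 (adjusted p = 1.53e-06) without mice 1 and 2. Opalin, an oligodendrocyte membrane protein, rose by 1.49 (adjusted p = 0.000595), Aspa, which splits N-acetylaspartate, by 1.45 (adjusted p = 9.44e-05) and Evi2a by 1.65 (adjusted p = 2.34e-05).

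The abundant myelin gene Mbp did not pass, at 0.22 (adjusted p = 0.684). It was saturated on all 5 P22 arrays and 3 P10 arrays, so its difference is limited by the scanner's range. It read -0.12, -0.11, 0.14, 1.21 and 1.54 at P10 and 0.55, 0.59, 0.80, 0.85 and 0.97 at P22, and P10 mice 1 and 2 were the 2 highest P10 mice. One probe of Mbp was called in the opposite direction to its brightest probe, and the Mbp difference was -0.12 under median centring. Of 10 oligodendrocyte precursor genes, 3 fell and none rose, with a median of -0.52, so 30% were called against 32.9% of all genes. Without mice 1 and 2, 2 of 9 fell and the median was -0.14, and with slide as a fixed block none of 10 was lower. Pdgfra, the growth factor receptor of precursors, read -1.05, -0.68, -0.26, -0.15 and 0.39 at P10 and -2.10, -2.06, -1.88, -1.87 and -1.76 at P22 and differed by -1.58 (SE 0.236, adjusted p = 1.2e-05). Gpr17, a receptor of cells about to differentiate, differed by -1.76 (SE 0.276, adjusted p = 8.58e-05), or by -0.99 without mice 1 and 2, where it was not tested. Mouse 1 was the highest P10 mouse for both.

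Microglial genes fell in 4 of 19, with none higher, a share near the 18.9% of all genes that fell. These included the lysosomal protein Cd68 at -0.68 (adjusted p = 0.00215), the surface receptor Fcrls at -0.69 (adjusted p = 0.000661) and Aif1 at -0.63 (adjusted p = 0.0235). Without mouse 1, which was the highest P10 mouse for all 3, 2 of 19 fell, and Aif1 was not called, at -0.45 (adjusted p = 0.0951). Aif1 was not called with any 1 of these mice left out, P10 mouse 1 or 7 or P22 mouse 26, at -0.56 to -0.45 (adjusted p = 0.0589 to 0.0951).

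Of 19 genes of endothelium and the blood-brain barrier, 7 rose and 2 fell, or 6 and 0 of 17 without mice 1 and 2. Slco1a4, an organic anion transporter of brain endothelium, read -0.51, -0.38, 0.00, 0.03 and 0.46 at P10 and 1.53, 1.74, 1.75, 1.76 and 1.78 at P22, with no overlap and a rise of 1.79 (SE 0.178, adjusted p = 4.09e-08). Ly6c1, a surface protein of brain endothelium, rose by 1.77 (SE 0.216, adjusted p = 9.42e-07), the efflux pump Abcb1a by 1.20 (adjusted p = 7.93e-06) and the glucose transporter Slc2a1 by 1.18 (adjusted p = 0.00068). The Abcb1a difference was 0.33 with slide as a fixed block. Cldn5, the main tight junction claudin of these cells, fell, with a difference of -0.50 (adjusted p = 0.00544), and was not called without mice 1 and 2, at -0.28 (adjusted p = 0.127).

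Pericyte genes fell in 5 of 10 and none rose, among them Nid1, of the basement membrane, at -1.19 (adjusted p = 0.00198). Genes of meninges and fibroblasts fell in 4 of 15 and rose in 2, so 40% were called against 32.9% of all genes. The fibrillar collagen gene Col3a1 and the proteoglycan Lum differed by -0.98 (adjusted p = 0.00899) and -0.87 (adjusted p = 0.00571), and Mgp, a matrix Gla protein, rose by 1.14 (adjusted p = 0.000126). The Mgp difference was 0.29 with slide as a fixed block.

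Markers of neighbouring tissue gave few calls. None of 15 genes of brainstem and deep nuclei was called, although at P10 their median level ran from -1.64 in mouse 7 to 0.12 in mouse 1 and -0.01 in mouse 2, against -1.88 to -1.26 at P22. Of these genes, 14 at P10 and 11 at P22 were above background on at least 3 arrays. None of 8 erythrocyte genes was called, while 2 of 7 rose without mice 1 and 2. Of 12 choroid plexus genes 1 was called, Clic6, a chloride channel protein, at 1.46 (adjusted p = 0.027). It was not called without mouse 1, at 1.14 (adjusted p = 0.0924), and was -1.16 with slide as a fixed block. Clic6 was not called with any 1 of these mice left out, P10 mouse 1, 2 or 7 or P22 mouse 26 or 30, at 1.14 to 1.41 (adjusted p = 0.0518 to 0.0924). Ttr, the abundant choroid plexus carrier of thyroid hormone, read -3.74, -3.60, -3.51 and -0.40 at P10 (4 usable arrays) and -3.58, 0.30, 0.39 and 1.49 at P22 (4 usable arrays). It varied by more than 3 log2 units within each age, and did not pass at 2.46 (adjusted p = 0.212).

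Of 12 genes of the insulin-like growth factor system, 2 rose and 5 fell, or 2 and 3 of 11 without mice 1 and 2, and the median of 0.09 turned negative under median centring (-0.07). Igf1 and Igf2, the ligands, differed by -0.53 (adjusted p = 0.024) and -0.59 (adjusted p = 0.00942), and Igf2 was not called without mice 1 and 2, at -0.53 (adjusted p = 0.0509). Igf1 was not called with any 1 of these mice left out, P10 mouse 5, 7 or 10 or P22 mouse 26, at -0.49 to -0.37 (adjusted p = 0.0521 to 0.102). The binding protein Igfbp2 read -0.33, -0.03, -0.02, 0.65 and 1.31 at P10 and -1.41, -1.38, -1.10, -0.95 and -0.57 at P22 and differed by -1.40 (SE 0.292, adjusted p = 0.000584), while Igfbp3 rose by 1.13 (adjusted p = 0.000139), a rise that stood at -0.05 with slide as a fixed block.

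Imprinted genes, many of which promote growth before weaning, fell in 6 of 18 and rose in 1, or 3 and 3 of 16 without mice 1 and 2. With all mice 38.9% were called, near the 32.9% of all genes. Plagl1, a transcription factor of the imprinted network, read -0.34, 0.03, 0.34 and 0.53 at P10 (4 usable arrays) and -1.46, -1.36, -1.32, -1.26 and -0.25 at P22, with P22 mouse 26 inside the P10 range, and differed by -1.27 (SE 0.24, adjusted p = 0.000365). Mest differed by -1.26 (adjusted p = 0.00691), or -1.90 (adjusted p = 6.22e-05) without mice 1 and 2, and Nnat by -1.24 (adjusted p = 0.00963), and Nnat was not called without mice 1 and 2, at -0.58 (adjusted p = 0.178). Dlk1 did not pass, at -1.41 (adjusted p = 0.0646).

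Of 13 genes of thyroid hormone action, 4 rose and 1 fell, or 2 and 1 without mice 1 and 2. With all mice 38.5% were called against 32.9% of all genes. Crym, which binds the hormone in the cytoplasm, read -0.41, -0.23, -0.23, 0.07 and 0.54 at P10 and -2.43, -1.75, -1.59, -1.54 and -1.42 at P22, a difference of -1.69 (SE 0.252, adjusted p = 1.13e-05) without overlap. Dio2, the enzyme that activates the hormone, rose by 0.57 (adjusted p = 0.00227), and Hr, a corepressor and known target, by 0.92 (adjusted p = 0.0207), with P22 mouse 26 at 2.45 and the other P22 mice between 0.46 and 0.71. Hr was not called with any 1 of these mice left out, P10 mouse 7 or P22 mouse 26, at 0.55 to 0.80 (adjusted p = 0.0584 to 0.0952).

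Neurotrophin genes rose in 2 of 12 and fell in 4, or 2 and 2 without mice 1 and 2. Bdnf, a neurotrophin of granule neurons, read -1.67, -1.09, -0.99, -0.40 and 0.64 at P10 and 0.05, 0.66, 0.70, 1.76 and 2.13 at P22. P10 mouse 1 was the highest of its age and overlapped P22, the rise was 1.76 (SE 0.405, adjusted p = 0.00148), and without mouse 1 it was 2.10 (adjusted p = 0.000188). Ntrk3, the receptor of neurotrophin 3, rose by 0.67 (adjusted p = 0.0362). Ntrk3 was not called with any 1 of these mice left out, P10 mouse 5, 7 or 10 or P22 mouse 26 or 27, at 0.43 to 0.66 (adjusted p = 0.0608 to 0.153). Ngfr, the low-affinity receptor of granule precursors and young Purkinje cells, read -0.60, 0.14, 0.24, 0.28 and 0.49 at P10 and -1.51, -1.47, -1.37, -1.35 and -1.24 at P22 and differed by -1.50 (SE 0.18, adjusted p = 7.05e-07).

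Immediate early genes, which neurons transcribe within minutes of activity or handling, rose in 12 of 19, with 1 lower and a median log2 difference of 0.91. Fos, of the AP-1 factor, read -0.52, -0.51, -0.30, -0.26 and 0.41 at P10 and 2.91, 3.05, 3.13, 3.22 and 3.36 at P22. The spread within each age was under 1 log2 unit, and the rise of 3.37 (SE 0.534, adjusted p = 2.61e-05) was 10.3-fold. The orphan receptor Nr4a1 rose by 2.42 (SE 0.355, adjusted p = 1.28e-05), Egr4 by 2.24 (adjusted p = 6.23e-05) and Npas4, a factor specific to neuronal activity, by 2.16 (adjusted p = 2e-05). Egr2, which in brain also marks other cells, fell, with a difference of -0.98 (adjusted p = 0.00182). The CRE sequence TGACGTCA was found in 2 of 15 promoters of the list (13.3%) against 1.62% of all. The CArG box, the site of serum response factor, was found in 0 of 15 against 1.4% of all. Mice of both ages were killed in the same way, and the hour of killing is not given in the sources used here.

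Genes of the circadian clock rose in 10 of 17, with none lower and a median of 0.75, and all 17 had a log2 difference above 0. Per1, a repressor of the clock, read -0.06, -0.01, 0.47, 0.58 and 0.65 at P10 and 1.56, 1.65, 1.70, 1.85 and 2.37 at P22 and rose by 1.50 (SE 0.21, adjusted p = 5.3e-06). Per2 rose by 1.38 (adjusted p = 3.46e-05), the nuclear receptor Nr1d2 by 1.67 (SE 0.149, adjusted p = 1.4e-08), the repressor Bhlhe40 by 1.53 (adjusted p = 2.14e-06) and the output factor Tef by 1.25 (adjusted p = 0.000146). The E-box CACGTG was found in 5 of 15 promoters of the list (33.3%) against 6.05% of all. The D-box sequences TTATGTAA or TTACGTAA were found in 1 of 15 (6.67%) against 0.962%. The Per1 promoter, chr11:69098699-69098948 on the plus strand, was picked because it holds a match and is printed with its E-box in capitals.
Per1: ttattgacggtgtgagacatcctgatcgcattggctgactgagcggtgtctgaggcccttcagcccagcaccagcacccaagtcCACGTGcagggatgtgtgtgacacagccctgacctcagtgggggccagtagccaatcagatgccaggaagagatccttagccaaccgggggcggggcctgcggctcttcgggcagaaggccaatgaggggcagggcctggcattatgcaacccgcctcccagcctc

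Interferon response genes rose in 11 of 21, with 1 lower and a median of 0.68. With slide as a random block, 7 rose and 1 fell. With slide as a fixed block the median was 0.64, and Ifit1 and Usp18 differed by 1.41 and 1.31. Ifit1, which binds viral RNA, read -0.78, -0.31, -0.30, -0.20 and 0.09 at P10 and 1.20, 1.31, 1.68, 2.03 and 2.71 at P22, a rise of 2.08 (SE 0.362, adjusted p = 7.82e-05) without overlap. Ifit3, its partner, read -0.66, -0.48, -0.08, 0.05 and 0.67 at P10 and 1.49, 1.67, 1.93, 2.20 and 2.51 at P22 and rose by 2.06 (SE 0.283, adjusted p = 4.29e-06). P22 mouse 30 was the highest for both. Stat2, of the interferon-activated factor, rose by 1.19 (adjusted p = 7.05e-05) and Usp18, which limits the response, by 1.25 (adjusted p = 0.00677), while Tap1, a peptide transporter of antigen presentation, fell, with a difference of -0.51 (adjusted p = 0.00562), or -0.33 without mice 1 and 2, where it was not tested. The interferon-stimulated response element, searched as GAAA, any 2 bases and GAAA, was found in 7 of 18 promoters (38.9%) against 3.04% of all. The promoters of Ifit1 (chr19:34640739-34640888, plus strand) and Ifit3 (chr19:34583279-34583528, plus strand) were picked because each holds 2 such sequences, printed in capitals as their reverse complement.
Ifit1: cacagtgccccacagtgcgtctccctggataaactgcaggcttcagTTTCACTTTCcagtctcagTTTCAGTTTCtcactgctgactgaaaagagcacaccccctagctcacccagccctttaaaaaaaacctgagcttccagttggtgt
Ifit3: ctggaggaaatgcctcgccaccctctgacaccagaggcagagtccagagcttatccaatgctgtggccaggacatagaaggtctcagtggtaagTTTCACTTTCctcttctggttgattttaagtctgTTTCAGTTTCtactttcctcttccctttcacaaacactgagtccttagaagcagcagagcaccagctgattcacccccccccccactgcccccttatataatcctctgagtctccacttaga

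Metal-binding genes rose in 7 of 12 and fell in 4, or 5 and 2 of 11 without mice 1 and 2. The metallothioneins Mt1 and Mt2, made mainly by astroglia, were both called as higher. Mt1 read -0.95, -0.70, 0.26, 0.34 and 0.58 at P10 and 1.93, 2.05, 2.08, 2.16 and 2.39 at P22 and rose by 2.22 (SE 0.253, adjusted p = 3.18e-07). Mt2 had 3 usable P22 arrays, saturated on all of them, so the size of its rise is not given. Glucocorticoid-responsive genes rose in 5 of 11, with none lower, or in 3 of 9 with 1 lower without mice 1 and 2, and their median of 0.38 was -0.29 with slide as a fixed block. Nr3c1, the glucocorticoid receptor, rose by 1.10 (adjusted p = 2.97e-06) and its target Tsc22d3 by 1.18 (adjusted p = 5.02e-05). With the Cy5 channel alone, Nr3c1 was not called, at 0.21 (adjusted p = 0.558).

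Genes of cholesterol synthesis fell in 14 of 23, with 1 higher and a median of -0.59, or -0.13 with slide as a fixed block. Dhcr7, which completes the pathway, read -0.33, -0.18, -0.14, 0.37 and 0.37 at P10 and -1.69, -1.19, -1.19, -0.99 and -0.91 at P22 and differed by -1.21 (SE 0.183, adjusted p = 1.44e-05). Nsdhl, a demethylation step, differed by -1.12 (SE 0.136, adjusted p = 9.05e-07) and Srebf2, the transcription factor of the pathway, by -1.13 (adjusted p = 5.45e-06). With slide as a fixed block, Dhcr7 and Srebf2 differed by -0.37 and -0.13. The sterol regulatory sequence TCACNCCAC was found in 1 of 17 promoters of the list (5.88%) against 1.04% of all. Ribosomal protein genes fell in 14 of 20, with none higher and a median of -0.51, and all 20 had a log2 difference below 0. Rps19, of the small subunit, read 0.15, 0.33, 0.42 and 1.04 at P10 (4 usable arrays) and -1.21, -0.98, -0.85, -0.77 and -0.69 at P22 and differed by -1.39 (SE 0.17, adjusted p = 1.43e-06).

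Glycolysis genes rose in 8 of 23 and fell in 3, with the neuronal enolase Eno2 at 1.24 (adjusted p = 0.00366) and the phosphofructokinase Pfkm at 1.11 (adjusted p = 1.17e-05). Respiratory chain genes rose in 5 of 25 and none fell, so 20% were called against 32.9% of all genes. Their median of 0.22 was -0.02 under median centring. Sdha, of complex II, rose by 0.66 (adjusted p = 0.000628).

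Atxn7, the gene altered in the KI mice and a subunit of the SAGA complex that acetylates histones and removes ubiquitin, read -0.71, -0.42, -0.22, -0.07 and 0.38 at P10 and 0.41, 0.43, 0.53, 0.70 and 1.37 at P22 in these wild-type mice. It rose by 0.90 (SE 0.203, adjusted p = 0.00131), with no overlap and P22 mouse 26 the highest. Of 20 genes of SAGA and its partners, 2 rose and 7 fell, or 1 and 4 of 17 without mice 1 and 2. The other rise was that of Kat2b, an acetyltransferase of the complex, at 1.60 (adjusted p = 2.44e-05). Supt3 fell, with a difference of -0.79 (adjusted p = 0.000673), and Usp22, the ubiquitin protease, with one of -0.56 (adjusted p = 0.0291). Without mice 1 and 2, Usp22 was not called, at -0.58 (adjusted p = 0.0672). Usp22 was not called with any 1 of these mice left out, P10 mouse 7 or P22 mouse 27, 29 or 30, at -0.52 in each case (adjusted p = 0.0603 to 0.067). Among 24 other ataxia genes, 9 rose and 3 fell, or 5 and 3 of 20 without mice 1 and 2, which includes Itpr1 and Cacna1a as given above.

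**Figure D5:**
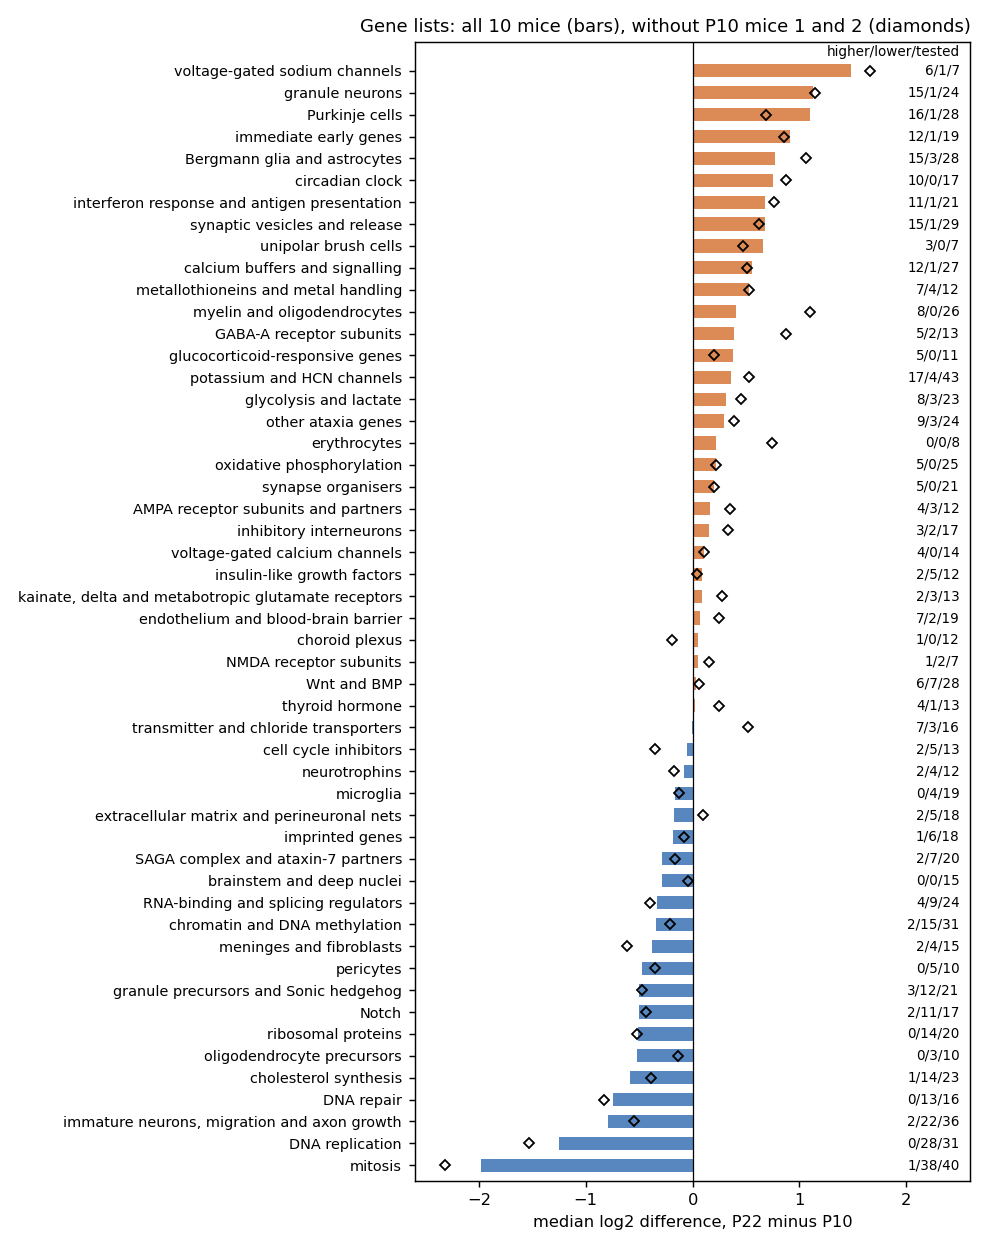
Median log2 difference from P10 to P22 of each gene list (horizontal axis) in all 10 mice (bars) and without P10 mice 1 and 2 (diamonds), with the numbers of members higher, lower and tested at the right. Mitosis has the lowest median (-1.98) and sodium channels the highest (1.48), against -0.02 for all genes.

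Outside these lists, the largest rise was that of Etnppl, an astrocyte enzyme that degrades phosphoethanolamine, with -0.43, -0.43, -0.41, 0.10 and 0.75 at P10 and 3.91, 4.03, 4.11, 4.21 and 4.40 at P22. The ages lay about 3 log2 units apart at the nearest mice, and the difference was 4.21 (SE 0.326, adjusted p = 3.26e-09), or 18.6-fold. Fam107a, an actin-associated protein of glia and neurons, rose by 3.76 (SE 0.631, adjusted p = 7.04e-05), or 3.19 (adjusted p = 0.000207) without mouse 1, although P10 mouse 10 read 2.38. The Fam107a difference was 0.29 with slide as a fixed block. Crtam, an adhesion molecule first described in T cells, rose by 3.29 (adjusted p = 7.22e-06), Olfm3, a secreted olfactomedin, by 2.96 (adjusted p = 8.95e-09) and Chil5, a chitinase-like protein, by 2.69 (adjusted p = 3e-07).

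Further rises were those of the centriolar protein Cep76 at 2.57 (adjusted p = 1.43e-05), Atoh7, a relative of Atoh1 best known from retina, at 2.53 (adjusted p = 1.16e-07), and the neuronal pentraxin Nptx1 at 2.52 (adjusted p = 7.31e-06). The repressor Bcl6 rose by 2.52 (adjusted p = 8.99e-06) and the serpin Serpinb2 by 2.46 (adjusted p = 2.09e-09). Each of these 5 genes had every P22 mouse above every P10 mouse.

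Among the largest falls outside the lists, Tox3, a high-mobility-group factor, read -0.62, -0.60, -0.46, 0.17 and 0.42 at P10 and -4.32, -4.09, -3.88, -3.87 and -3.75 at P22, with little spread within either age and a difference of -3.76 (SE 0.331, adjusted p = 7.64e-09). Pbk, a mitotic kinase, differed by -3.48 (adjusted p = 3.84e-06), Esco2, which acetylates cohesin during replication, by -3.18 (adjusted p = 2.65e-06) and Ska1, of the kinetochore, by -3.15 (adjusted p = 7.91e-07). Rcor2, a corepressor of neural progenitors, differed by -3.00 (adjusted p = 2.12e-05) and Insm1, a factor of neurons leaving the cycle, by -3.00 (adjusted p = 0.00021). Cd1d1, a lipid antigen-presenting molecule, read -0.70, -0.28, -0.12, 0.38 and 0.44 at P10 and -3.70, -3.23, -3.07, -3.06 and -2.99 at P22 and differed by -3.15 (SE 0.217, adjusted p = 1.66e-10), and Shisal2b differed by -2.97 (adjusted p = 1.96e-07).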

How the data were processed

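Cerebellar RNA of 10 wild-type mice was read on 2-colour Agilent G4122F arrays, within a series of 30. Each deposited scanner file, per the file headers, gives spot intensity and background values and log10 ratios of Cy5 over Cy3 from Agilent Feature Extraction 9.5.3.1, with 0 or 1 flags as another unit. The deposited value table holds log2 ratios of 1905 probes that the authors kept after normalization in BRB-ArrayTools, per the series design text; its correlation with the raw log2 ratio of Cy5 to Cy3 was between -0.9997 and -0.9613, so it runs reference over mouse, and its column medians of 0.0679 to 1.1428 leave the centring unknown.

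Of 45018 spots per array, 1639 controls were left out. Outlier spots, 1.14% to 5.35% of a wild-type array, were treated as missing. Normexp background correction (offset 50) and loess within each array in limma 3.58.1 (R 4.3.3) gave log2 ratios, with the mean taken over repeat spots (41174 probes). Testing required a Cy5 signal marked as well above background in 4 or more of the 30 arrays (35518 probes) and 3 or more usable arrays at both ages. Symbols came through the accession for 22951 probes, from the file for 10978, and were missing for 7245. The brightest tested probe stood for a gene, and 95 genes had probes called in opposite directions.

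A model of 6 group means was fitted to all 30 arrays (24 residual degrees of freedom). P-values are two-sided and adjusted by Benjamini-Hochberg over the probes of a comparison. The number of arrays limits the precision. Tested on simulated data of 26817 probes with 200 changed, the fit for P22 against P10 recovered 93 of 100 changes of 1 and 100 of 100 changes of 2 on the log2 scale, with 12 false calls. The simulated noise was independent between arrays, with no slide or scan day effect, no outlying mouse and no missing value. These counts check the fit and do not measure errors in the real comparison. Named genes are the largest changes overall and within each list, any member of receptor and transporter families and of cell type markers, genes off at 1 age, and Atxn7. Of 234 genes described, 215 came from this rule; the other 19 (Cdc20, Cdk1, Plk1, Top2a, Nek2, Pcna, Orc6, Fen1, Ezh2, Ptbp1, Tiam1, Etv1, Pax6, Scn8a, Camk4, Septin4, Slc4a4, Dlk1 and Npas4) were chosen after their values were seen, 13 of them called. Members and lists were chosen with earlier results of these data known. Promoter sequences come from RefSeq (GRCm38.p6), the first listed start of each gene, and 9 motifs were searched. Some genes are not reported here. Alternatives tried were the background correction, centring and scaling, Cy5 alone, detection filters, wild-type arrays only, array weights, slide and scan day as blocks, the value table, and each mouse left out.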

Additional observations from a re-analysis of the deposited data

Results flagged for a closer look

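In each age, the highest and the lowest mouse were compared with the rest by Dixon's ratio of the nearest gap to the whole range. The limit was Dixon's 95% critical value for the number of mice. Of 561 groups of named genes and list medians, 52 (9.27%) passed it, 45 for genes and 7 for list medians, where chance gives about 1 in 20. The 561 groups are not independent, since lists hold the named genes.

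P22 mouse 26, the only wild-type P22 mouse on slide 7, accounted for 25 of the gene results. It was the highest P22 mouse for Boc (1.80), Gli1 (1.25), Marcksl1 (-0.87), Astn2 (2.03), Ptbp1 (0.05), Celf1 (1.29), Grin1 (1.94) and Slc12a2 (1.24). It was also highest for Cacna1a (2.22), Vamp1 (0.92), Rims1 (1.83), Stx1a (-0.68), Hapln4 (1.51), Plagl1 (-0.25), Hr (2.45), Pfkm (1.68), Tef (2.17), Stat2 (2.00) and Usp22 (-0.17). It was the lowest P22 mouse for Asf1b (-1.86), Pcp2 (1.15), Gabra5 (-1.02), Kcnip4 (0.76), Ly6c1 (1.47) and Igf1 (-1.40). Among list medians it was highest for the circadian clock (1.19), granule precursors and Sonic hedgehog (-0.26), potassium and HCN channels (0.66), synaptic vesicles (0.95) and calcium channels (0.44), and lowest for DNA replication (-1.60). Its effect on the counts was within 1.5 times, at 9127 probes called without it. The part of its slide was not tested.

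P10 mouse 1 was the lowest P10 mouse for 9 genes: Btg1 (-1.61), Boc (-0.69), Gabra6 (-4.95), Gabrd (-2.38), Calb1 (-3.01), Pcp2 (-2.58), Cbln1 (-2.33), Stat2 (-0.53) and Rcor2 (-1.74). Most are genes of granule or Purkinje cells, and the same mouse was highest for the serotonergic genes Slc6a4 and Tph2. Its part in the results was not tested beyond the values given without it.

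The remaining results were scattered over mice. At P10 they were mouse 10 as the highest for Fos (0.41), mouse 2 as the highest for Slc1a2 (-0.03), mouse 5 as the highest for Ttr (-0.40), and mouse 7 as the lowest for Kcnq5 (-0.57) and for the median of inhibitory interneuron genes (-0.77). At P22 they were mouse 27 as the lowest for Mki67 (-3.41) and the highest for Gng13 (2.67), and mouse 30 as the highest for Mycn (-1.29) and Sdha (0.35). Mouse 31 was the highest for Igf2bp3 (-0.95) and Gria2 (0.00) and the lowest for Slco1a4 (1.53).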

How the results depend on the processing

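The count of 10443 probes (5011 higher, 5432 lower) stayed within 1.5 times under no background subtraction, scanner log ratios, scaling between arrays, Cy5 alone, both detection filters, wild-type arrays only, array weights and slide as a random block. Leaving out 1 wild-type mouse gave 9127 to 10168 called, 4313 to 4854 higher and 4746 to 5314 lower. Median centring called 7429, with 3031 higher. Slide as a fixed block called 5468 (2988 higher, 2480 lower), and scan day 3783 (2125 higher, 1658 lower). In both, the 4 P22 mice of slide 6 carry no information on age. The value table, read with its sign turned, called 1515 of 1720 probes (651 higher, 864 lower), a set the authors had filtered for variability. The interaction was called for 0 probes in every fit that held the KI mice except slide (1602) and scan day (533) as fixed blocks. No paired analysis was possible because the wild-type ages share no mouse numbers.

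The cause of the reversed values below was not tested. Under median centring, Mbp stood at -0.12 and the medians of Wnt and BMP, insulin-like growth factors and oxidative phosphorylation at -0.15, -0.073 and -0.023. With scaling, Gli1 stood at -0.021. With Cy5 alone, Pax6 stood at 0.21, Gabra5 at -0.66, Gli1 at -0.21, and the medians of Wnt and BMP and of GABA-A subunits at -0.27 and -0.29. With array weights, Grin1 stood at -0.031, Gli1 at -0.13 and Grin2a at -0.015.

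With slide as a fixed block, reversed values were Calb1 -0.10, Gabra5 -0.068, Ttr -3.38, Ptbp1 0.033, Igfbp3 -0.047, Gabra2 0.29, Clic6 -1.16 and Gria2 -0.20. The medians were -0.055 for insulin-like growth factors, -0.29 for glucocorticoid-responsive genes, -0.23 for unipolar brush cells, -0.15 for NMDA subunits, 0.19 for matrix, 0.56 for transporters and -1.68 for choroid plexus. With scan day they were Calb1 -0.29, Slc1a3 -0.20, Gabra5 -0.12, Gabra2 0.13, Clic6 -0.33, Ptch1 -0.060 and Gria2 -0.28, with medians of -0.11 for insulin-like growth factors, -0.30 for unipolar brush cells and 0.58 for transporters.

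With 1 mouse left out, the insulin-like growth factor median ran from -0.12 to 0.16, negative without P10 mouse 5 (-0.12), 7 (-0.11) or 10 (-0.068). Pax6 ran from -1.003 to 0.048, positive without P10 mouse 5. Without P22 mouse 26, Grin1 stood at -0.022, Gli1 at -0.17 and Grin2a at -0.027, and their highest values were 0.54, 0.20 and 0.12. Without the 2 P10 mice of slide 2, Gria2 stood at -0.031 and the medians of matrix and transporters at 0.10 and 0.52. The 5 mice a group and probes near background limit how small a difference can be called.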
